A study of Homo sapiens with 29 samples.

Results

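The data described here are the knockdown of SNW1 in H460 cells, an established human lung cancer cell line, against a control hairpin. RNA sequencing libraries from cells with a short hairpin RNA (sh) against SNW1 (shSNW1, n = 3) were compared with libraries from cells with a hairpin against GFP (shGFP, n = 3), a jellyfish protein used as a control target. All cells carried their hairpin for 72 h, and polyadenylated RNA was sequenced. The genes described are those with at least 1 FPKM (fragments per kilobase of transcript, scaled for sequencing depth) in at least 3 of these 6 libraries, which left 11431 of the 23710 gene symbols in the table, and the 6 libraries are part of a series of 29 samples. The H460 groups with hairpins against NR0B1 (shNR0B1, n = 3) and NRF2 (shNRF2, n = 3), also at 72 h, are used where a change is set against the other knockdowns. Other H460 groups of the series, whose labels name no hairpin, were not used. H460 cells carry a mutated KEAP1, so NRF2 is active in this line, and shNRF2 is the group in which NRF2 itself is targeted. The labels give 1 hairpin name per target, no hairpin sequence, and no word on whether the libraries of a group came from separate cultures, so p-values rest on library-to-library spread alone, part or all of which can be technical.

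SNW1, also called SKIP or NCOA62, is a nuclear protein that works in transcription and in splicing. In the spliceosome it sits beside the PRP19 complex in the activated catalytic core, next to the U5 and U6 RNAs. It was also described as a coregulator of the vitamin D receptor and other nuclear receptors, of SMAD proteins and of the Notch effector RBPJ, and as a partner of P-TEFb, the kinase that releases paused RNA polymerase. In human cells its depletion has been linked to faulty splicing of the cohesion factor CDCA5 (sororin) and to altered CDKN1A induction. The values used here are per gene, so they show levels of RNA and not which introns were removed.

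Libraries of 1 group were close to each other, with a mean correlation of 0.996 to 0.998 between log2 levels, and the whole reads recovered from the values came to 17137471 to 24613434 per library. The shGFP 3 library stood farthest from its replicates. Its median squared differences in reads were 3.87 and 4.50 times that of sampling noise, against 1.77 between the other shGFP libraries. Of the 6 markers of the cell line (KRT8, KRT18, KRT19, KRT7, VIM and NR0B1), 2 were higher and 3 lower in shSNW1 cells, or 3 and 3 when libraries were rescaled to a common total, and KRT18 averaged 367 FPKM in shSNW1 cells and 608 FPKM in shGFP cells. Of 12 immune cell markers, 4 were at 0 in all 6 libraries and 10 were below 1 FPKM in all 6, while their summed level was 28.9 to 30.0 FPKM in shSNW1 libraries and 29.2 to 33.1 FPKM in shGFP libraries. Of 11 fibroblast and endothelial markers, 1 was at 0 and 7 were below 1 FPKM in all 6 libraries, and their summed level was 37.7 to 39.3 FPKM in shSNW1 libraries and 35.6 to 36.6 FPKM in shGFP libraries. In bulk RNA such as this, fewer cells of a kind and less RNA per cell cannot be told apart.

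SNW1 itself was at 30.9, 34.2 and 31.5 FPKM in shSNW1 libraries, against 51.9, 52.3 and 49.3 FPKM in shGFP libraries. Every shSNW1 library lay below every shGFP library, so the knockdown was visible and partial. On the log2(FPKM + 1) scale, where a difference of 1 is a 2-fold change, SNW1 fell by 0.65 ± 0.0429 (SE), with an adjusted p of 1.466e-08 (limma, Benjamini-Hochberg over all 11431 genes). It averaged 50.9 FPKM in shNR0B1 cells and 44.4 FPKM in shNRF2 cells, both above the shSNW1 libraries.

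The other genes that the series targets or names moved by less. NR0B1, an orphan nuclear receptor, was at 60.6, 60.2 and 58.8 FPKM in shSNW1 libraries and 48.9, 45.7 and 48.2 FPKM in shGFP libraries, a rise of 0.33 ± 0.0416 (adjusted p = 9.426e-06, limma). NFE2L2, which encodes NRF2, rose by 0.40 ± 0.0381, with a mean of 57.3 FPKM in shSNW1 cells against 43.3 FPKM in shGFP cells. KEAP1, the protein that marks NRF2 for degradation, rose by 0.17 ± 0.045. RBM45, an RNA-binding protein, fell by 0.24 ± 0.0642, and its lowest shGFP library (9.40 FPKM) stood next to its highest shSNW1 library (9.33 FPKM).

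The change was broad and mostly small. Of the 11431 genes, 7833 (68.5%) differed between shSNW1 and shGFP at an adjusted p under 0.05 (limma), of which 3580 (31.3%) were higher and 4253 (37.2%) lower. When libraries were rescaled to a common total of recovered reads, 4484 were higher and 3445 lower, so the balance between the directions depends on the scaling. Without the shGFP 3 library, 3541 were higher and 4143 lower. The median change was -0.03, and 90% of genes lay between -0.67 and 0.62. At a change of at least 1.5 fold, 644 genes (5.63%) were higher and 814 (7.12%) lower, and 285 genes changed by 2 fold or more, 148 higher and 137 lower. With so large a share of genes called, a list of genes is of interest here only where its count or its median stands well away from these shares.

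**Figure D1:**
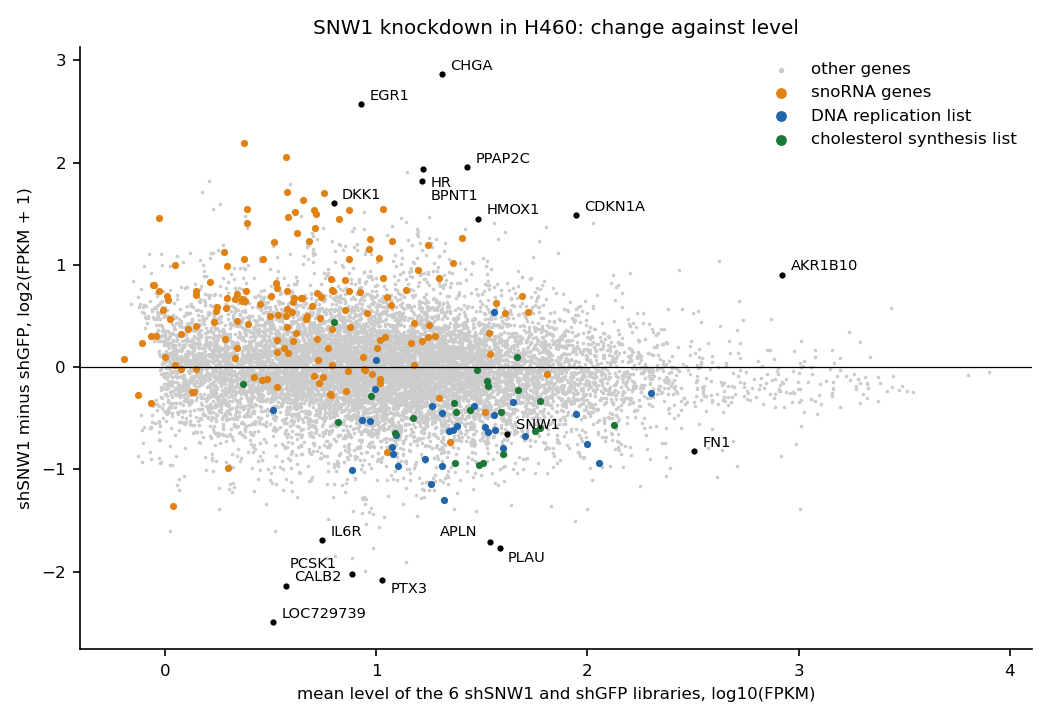
Change of each of the 11431 genes (shSNW1 minus shGFP, log2(FPKM + 1), vertical axis) against its mean level in the 6 libraries (log10 FPKM, horizontal axis), with 3 groups of genes in colour. The DNA replication and cholesterol genes lie mostly below 0, many snoRNA genes lie above it, and CHGA (2.86) and LOC729739 (-2.49) are the extremes.

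The gene that rose most was CHGA, which encodes chromogranin A, an acidic protein of dense-core secretory granules. It was at 36.0, 38.2 and 36.3 FPKM in shSNW1 libraries, against 4.54, 4.09 and 3.96 FPKM in shGFP libraries, a difference of 2.86 ± 0.0577 (adjusted p = 1.479e-12, limma). The groups did not overlap. CHGA was also high in shNR0B1 cells, at 26.55 ± 1.905 FPKM (SD, n = 3), and at 9.815 ± 0.551 FPKM in shNRF2 cells. The second was EGR1, a zinc finger transcription factor and immediate early gene, at 14.8, 14.8 and 15.9 FPKM in shSNW1 libraries against 1.47, 1.85 and 1.84 FPKM in shGFP libraries (2.58 ± 0.0661, adjusted p = 2.802e-12). Unlike CHGA, EGR1 was low in the other knockdowns, with 1.21 FPKM in shNR0B1 cells and 1.2 FPKM in shNRF2 cells.

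Other genes that rose strongly were also high in another knockdown. PPAP2C, a lipid phosphate phosphatase, averaged 43.2 FPKM in shSNW1 cells and 10.4 FPKM in shGFP cells (1.96 ± 0.0571), and 61.8 FPKM in shNR0B1 cells. FGFRL1, a receptor of the FGF family that lacks the kinase domain, averaged 22.6 FPKM in shSNW1 cells and 5.27 FPKM in shGFP cells (1.91 ± 0.044), and 44.4 FPKM in shNR0B1 cells. HR, a nuclear corepressor of the vitamin D receptor, averaged 26.9 FPKM in shSNW1 cells and 6.26 FPKM in shGFP cells (1.94 ± 0.0657), and 48.7 FPKM in shNRF2 cells. BPNT1, a nucleotidase, was at 25.5, 26.0 and 27.1 FPKM in shSNW1 libraries and at 6.31, 7.20 and 6.60 FPKM in shGFP libraries. BPNT1 was nearly as high in shNR0B1 cells (24.9 FPKM) and shNRF2 cells (20.7 FPKM), so shGFP is the group that differs from the other 3. GABBR2, a subunit of the GABA-B receptor, averaged 6.57 FPKM in shSNW1 cells and 1.19 FPKM in shGFP cells (1.79 ± 0.0603).

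The remaining 8 of the 15 genes with the largest rise were DKK1, a secreted inhibitor of Wnt signalling, and 7 genes of small nucleolar RNAs. DKK1 was at 9.93, 9.90 and 10.1 FPKM in shSNW1 libraries and at 2.86, 2.73 and 2.23 FPKM in shGFP libraries (1.61 ± 0.0697). In the other knockdowns it was near the shGFP level, with 2.48 FPKM in shNR0B1 cells and 2.75 FPKM in shNRF2 cells.

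**Figure D2:**
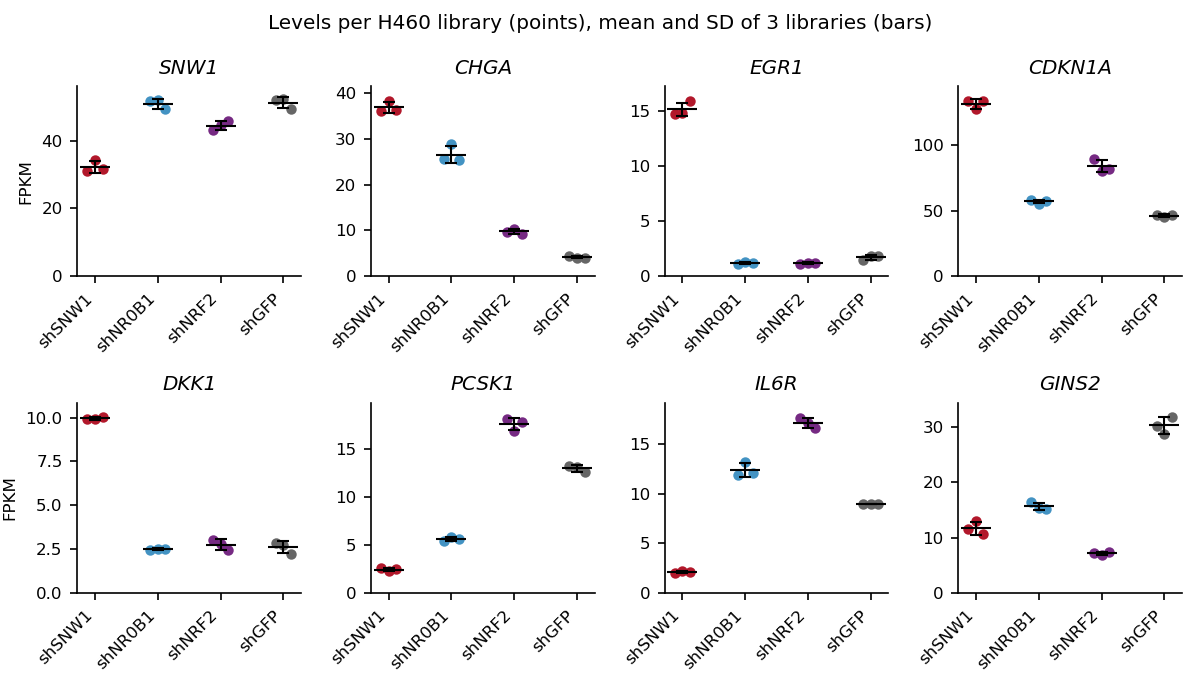
FPKM of 8 genes in each H460 library (points) with the mean and SD of the 3 libraries of a group (bars), for shSNW1, shNR0B1, shNRF2 and shGFP from left to right. EGR1, DKK1 and CDKN1A are highest and IL6R is lowest in the 3 shSNW1 libraries, while CHGA is also high in shNR0B1 and GINS2 is lowest in shNRF2.

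The gene that fell most was LOC729739, which the files name by its locus only, at 0.203, 0.298 and 0.346 FPKM in shSNW1 libraries against 6.37, 5.52 and 6.77 FPKM in shGFP libraries (-2.49 ± 0.11). Among secreted proteins, PTX3, a pentraxin of innate immunity, averaged 3.44 FPKM in shSNW1 cells and 17.8 FPKM in shGFP cells. PCOLCE2, an enhancer of procollagen cleavage, was at 5.26, 5.16 and 5.26 FPKM in shSNW1 libraries and 23.2, 21.8 and 21.9 FPKM in shGFP libraries (-1.91 ± 0.0418). PLAU, the urokinase plasminogen activator, averaged 16.9 FPKM in shSNW1 cells and 59.9 FPKM in shGFP cells (-1.77 ± 0.0373). APLN, the peptide ligand of the apelin receptor, averaged 15.6 FPKM in shSNW1 cells and 53.3 FPKM in shGFP cells (-1.72 ± 0.0436). C1QTNF6, a secreted protein with a C1q domain, was at 2.96, 2.88 and 2.94 FPKM in shSNW1 libraries and 13.5, 15.3 and 15.4 FPKM in shGFP libraries.

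Receptors and neural genes were also among the 15 that fell most. SUCNR1, the receptor for succinate, averaged 2.19 FPKM in shSNW1 cells and 10.5 FPKM in shGFP cells (-1.85 ± 0.0683). GPR64, an adhesion receptor, averaged 4.74 FPKM in shSNW1 cells and 15.9 FPKM in shGFP cells (-1.56 ± 0.038). CALB2, the calcium-binding protein calretinin, was at 0.709, 0.729 and 0.807 FPKM in shSNW1 libraries and 6.12, 6.37 and 7.68 FPKM in shGFP libraries, and it was as low in shNR0B1 cells (0.690 FPKM). DCLK1, a kinase that binds microtubules, averaged 1.14 FPKM in shSNW1 cells and 5.504 FPKM in shGFP cells, and MARC1, a mitochondrial reductase, averaged 3.85 FPKM in shSNW1 cells and 15.5 FPKM in shGFP cells. In none of these genes did the shSNW1 and shGFP libraries overlap, which the rule for naming them required and which was so for 8054 genes (70.5%).

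CHGA lay at the top of the table and PCSK1 near the bottom, although both belong to the same secretory pathway. PCSK1, the proprotein convertase that cuts prohormones in granules, was at 2.57, 2.23 and 2.46 FPKM in shSNW1 libraries against 13.2, 13.1 and 12.6 FPKM in shGFP libraries (-2.03 ± 0.0487, adjusted p = 2.341e-12, limma). A list of 18 neuroendocrine secretory genes, drawn up after these values were seen, had 11 tested members, of which 1 (CHGA) rose and 9 fell, with a median of -0.54 against -0.03 over all genes. CHGA and PCSK1, whose values had been seen, are among the 11, so these counts are not independent of them. CPLX2 (complexin 2, -1.87), PCSK2 (-0.95), VGF (a granin, -0.92) and SYT1 (synaptotagmin 1, -0.54) fell, and PAM, which amidates peptides, fell by 0.50. Tested directly, 3 of the 11 were higher and 4 lower than in shNR0B1 cells (median -0.13). Against shNRF2, 4 were higher and 6 lower (median -0.69). Both CHGA and PCSK1 are known targets of the transcription factor CREB through a cAMP response element, so the 250 bases before each start are shown, in RefSeq sequence of build GRCh38.p14, with the letters TGACGTCA in capitals.
CHGA, chr14:92922900-92923149, plus strand: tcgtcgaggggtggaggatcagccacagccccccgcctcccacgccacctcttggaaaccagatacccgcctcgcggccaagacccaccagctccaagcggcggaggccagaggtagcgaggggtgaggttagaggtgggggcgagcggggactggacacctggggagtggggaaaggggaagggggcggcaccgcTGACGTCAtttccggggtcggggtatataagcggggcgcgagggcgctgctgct
PCSK1, chr5:96433249-96433498, minus strand: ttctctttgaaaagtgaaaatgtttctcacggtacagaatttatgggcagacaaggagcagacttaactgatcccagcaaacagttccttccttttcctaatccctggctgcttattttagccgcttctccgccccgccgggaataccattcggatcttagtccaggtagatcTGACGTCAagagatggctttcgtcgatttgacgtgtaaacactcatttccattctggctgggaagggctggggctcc
Each promoter held TGACGTCA, which reads the same on both strands, exactly 1 time, starting at position -54 in CHGA and -77 in PCSK1. It was present in 482 of the 27305 promoter windows of that length (1.77%), and in 281 of the 9111 windows of tested genes (3.08%). The same letters thus stood before a gene that rose and a gene that fell, and a match of letters does not show binding.

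EGR1 is a textbook target of serum response factor, which binds the CArG box, CC followed by 6 bases that are A or T and then GG. The 250 bases before the EGR1 start are given from the same source, with every CArG box in capitals.
EGR1, chr5:138465229-138465478, plus strand: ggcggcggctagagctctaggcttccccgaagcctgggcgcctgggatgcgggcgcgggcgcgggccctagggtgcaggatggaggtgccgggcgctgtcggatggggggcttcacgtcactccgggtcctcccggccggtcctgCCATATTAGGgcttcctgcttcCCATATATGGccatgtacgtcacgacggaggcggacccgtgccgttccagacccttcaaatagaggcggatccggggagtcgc
EGR1 held 2 CArG boxes in this window, starting at positions -105 and -83, and 312 of the 27305 windows (1.14%) and 83 of the 9111 of tested genes (0.911%) held at least 1. The box reads as a CArG box on both strands, and its presence does not show that the factor was bound. Of the 21 tested immediate early genes, 12 were higher and 2 lower in shSNW1 cells, with a median of 0.25. FOSL2 rose by 0.60 and JUNB by 0.59, while SPRY2, a feedback inhibitor of receptor tyrosine kinase signalling, fell by 0.50. JUNB was also high in shNRF2 cells (65.9 FPKM, against 54.1 FPKM in shSNW1 cells), whereas EGR1 was higher in shSNW1 cells in the direct tests against shNR0B1 (2.87) and shNRF2 (2.88).

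Apart from a list of IL-6 receptor genes given further on, DNA replication genes had the lowest median of the lists. Of 32 tested members 30 were lower and 1 higher in shSNW1 cells, 18 of the 30 by at least 1.5 fold, with a median of -0.62. Under a common total, 29 were lower and 2 higher. GINS2, a subunit of the replicative helicase, was at 11.6, 13.0 and 10.6 FPKM in shSNW1 libraries and at 30.3, 28.7 and 31.9 FPKM in shGFP libraries (-1.30 ± 0.0606, adjusted p = 4.991e-10, limma). E2F1, the transcription factor that switches on these genes at the start of S phase, was at 10.8, 10.8 and 10.9 FPKM in shSNW1 libraries and at 24.9, 25.5 and 25.5 FPKM in shGFP libraries (-1.15 ± 0.0645). Neither pair of groups overlapped. CDC6, which loads the helicase onto origins, fell by 0.97, TYMS, which makes thymidylate, fell by 0.94, and GINS4 fell by 1.00. MCM3 was the member that rose, by 0.54, although its partners MCM4 (-0.79) and MCM7 (-0.46) in the same ring-shaped helicase fell.

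The replication genes were also set against the other knockdowns. Over all genes, 68.2% differed between shSNW1 and shNR0B1 (34.4% higher and 33.9% lower, 5.58% and 6.63% by at least 1.5 fold). Between shSNW1 and shNRF2, 78.7% differed (40.6% higher and 38.1% lower, 13.6% and 14.5% by at least 1.5 fold). Tested directly, shSNW1 was higher than shNR0B1 in 10 and lower in 11 of the 32 genes, and against shNRF2 it was higher in all 32. GINS2 averaged 15.7 FPKM in shNR0B1 cells and 7.14 FPKM in shNRF2 cells. For GINS2 the shSNW1 level lay between those of shNRF2 and shNR0B1, and all 3 knockdowns were below shGFP.

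Matches to the E2F site in replication promoters are shown for the 3 listed genes with a match and the largest fall. The forms searched were TTTCGCGC and TTTGGCGC, on both strands, again in the 250 bases before the start (RefSeq, GRCh38.p14), and the matches are in capitals.
E2F1, chr20:33686386-33686635, minus strand: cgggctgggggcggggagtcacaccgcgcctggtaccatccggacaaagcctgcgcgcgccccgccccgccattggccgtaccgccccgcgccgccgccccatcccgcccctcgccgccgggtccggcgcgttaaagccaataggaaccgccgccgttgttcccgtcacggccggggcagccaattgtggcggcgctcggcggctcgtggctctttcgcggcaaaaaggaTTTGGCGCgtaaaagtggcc
POLA2, chr11:65261712-65261961, plus strand: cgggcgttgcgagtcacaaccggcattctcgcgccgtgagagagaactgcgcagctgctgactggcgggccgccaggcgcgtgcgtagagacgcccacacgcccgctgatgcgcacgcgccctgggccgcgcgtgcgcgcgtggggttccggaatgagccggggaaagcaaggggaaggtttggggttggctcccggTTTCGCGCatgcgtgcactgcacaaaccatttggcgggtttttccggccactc
MCM7, chr7:100101398-100101647, minus strand: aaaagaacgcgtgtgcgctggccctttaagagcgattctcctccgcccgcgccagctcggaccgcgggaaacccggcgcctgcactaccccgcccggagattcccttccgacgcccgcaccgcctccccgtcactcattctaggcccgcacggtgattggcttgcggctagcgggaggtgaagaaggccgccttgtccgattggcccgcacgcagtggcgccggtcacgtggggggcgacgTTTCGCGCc
A match was present in 7 of the 29 replication genes with a promoter sequence (24.1%), in 156 of the 9111 windows of tested genes (1.71%) and in 272 of all 27305 windows (0.996%). Of the 7, E2F1 (-1.15), POLA2, a subunit of the primase complex (-0.96), MCM7 (-0.46), E2F2 (-0.42), MCM6 (-0.35) and POLA1 (-0.22) fell, while POLE was not called (0.07, adjusted p = 0.1908, limma). Under a common total, POLA1 was no longer called (adjusted p = 0.05278). GINS2, which fell most, had no match in this window. Over the whole list, with or without a match, 30 of 32 genes were lower. A match of letters does not show binding, and the part of E2F in the fall was not tested.

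Genes of DNA repair and of mitosis moved the same way. Of 18 homologous recombination and Fanconi genes, 16 were lower and 2 higher, with a median of -0.55. EXO1, a nuclease that resects DNA ends, was at 52.0, 52.4 and 49.4 FPKM in shSNW1 libraries and 101, 98.7 and 91.2 FPKM in shGFP libraries, FANCD2 fell by 0.95 and XRCC2 by 0.89, while RAD51C rose by 0.26. Of 25 mitotic genes, 18 were lower and 3 higher, with a median of -0.26. CDK1, the kinase that starts mitosis, fell by 0.80, AURKB by 0.67 and BIRC5 by 0.66, while CDC20, the activator of the anaphase-promoting complex, rose by 0.31. In the direct test against shNR0B1, 3 of the 18 repair genes were higher and 8 lower in shSNW1 cells (median -0.13). Of the 25 mitotic genes, 12 were higher and 9 lower than in shNR0B1 cells (median -0.01). Against shNRF2, all 18 repair genes were higher (median 0.69). So were 24 of the 25 mitotic genes, with 0 lower (median 0.97).

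Sister chromatid cohesion, for which SNW1 is needed in other human cells, showed 8 genes lower and 3 higher of 16 (8 and 5 under a common total), with a median of -0.18. CDCA5, whose splicing depends on SNW1 in those cells, was at 19.5, 18.9 and 18.2 FPKM in shSNW1 libraries and at 25.4, 26.0 and 27.9 FPKM in shGFP libraries (-0.46 ± 0.0488), without overlap. It was lower still in shNR0B1 cells (16.7 FPKM) and shNRF2 cells (7.78 FPKM). ESCO2, an acetyltransferase of cohesin, fell by 0.99 and ESPL1, the separase, by 0.75, while NIPBL, the cohesin loader, rose by 0.39.

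CDKN1A was higher in shSNW1 cells than in every other H460 hairpin group. CDKN1A, which encodes the cell cycle inhibitor p21, was at 133, 127 and 133 FPKM in shSNW1 libraries against 46.4, 44.8 and 46.8 FPKM in shGFP libraries (1.49 ± 0.0411, adjusted p = 5.46e-12, limma). No shSNW1 library overlapped a library of the other groups, since CDKN1A averaged 56.9 ± 1.44 FPKM in shNR0B1 cells and 83.8 ± 4.898 FPKM in shNRF2 cells (SD, n = 3 each). GDF15, a stress-induced cytokine, averaged 99.7 FPKM in shSNW1 cells and 45.3 FPKM in shGFP cells, and AEN, a nuclease, averaged 43.8 FPKM in shSNW1 cells and 22.9 FPKM in shGFP cells. FAS, a death receptor, went the other way, at 9.13 FPKM in shSNW1 cells and 18.2 FPKM in shGFP cells (-0.92 ± 0.0498).

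**Figure D3:**
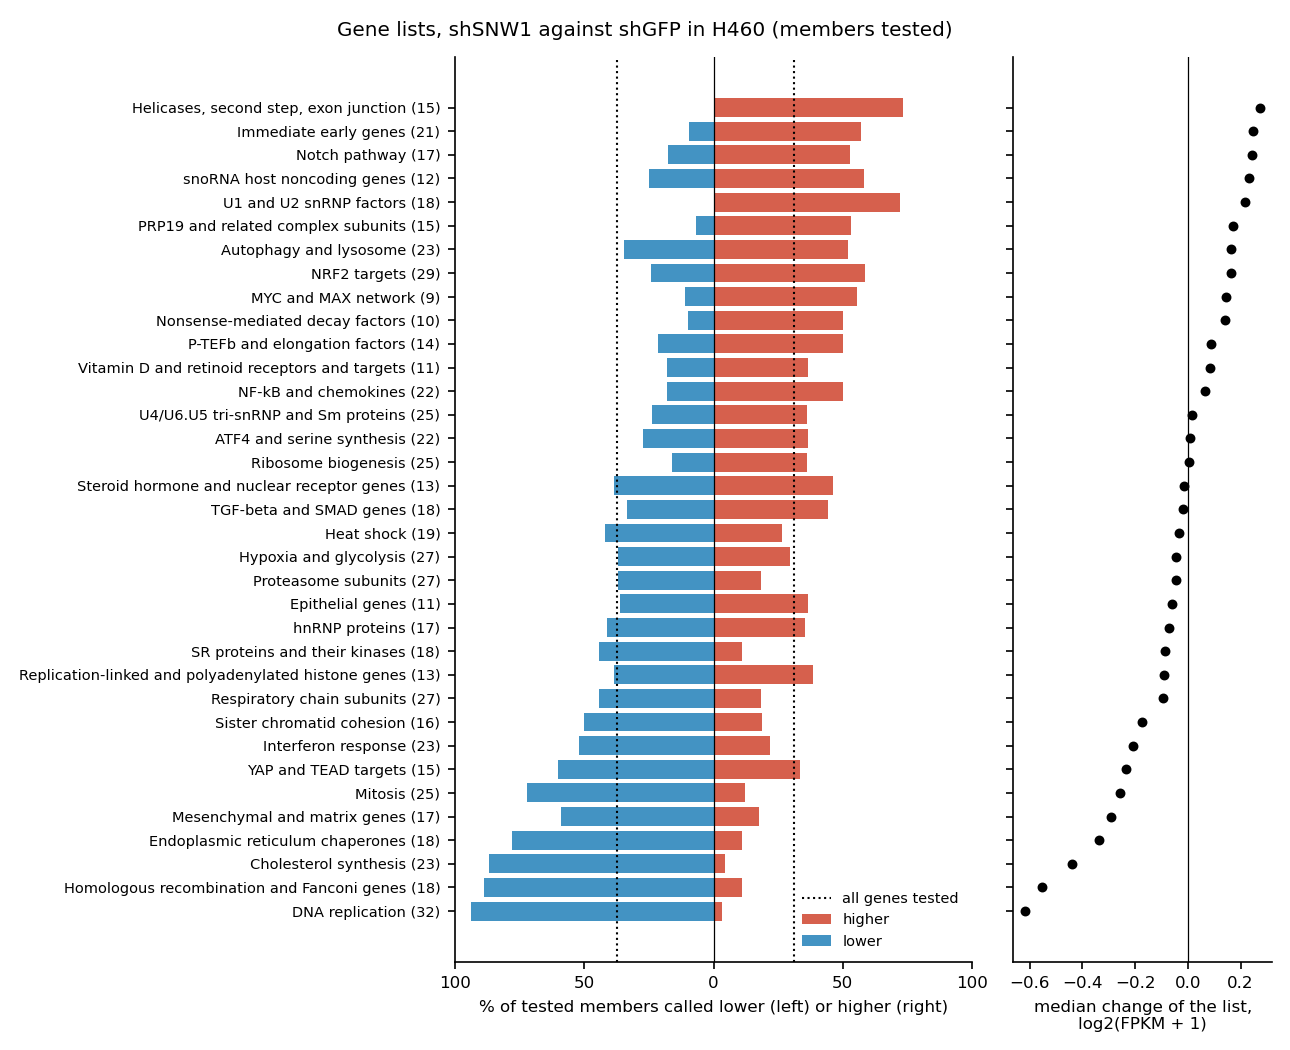
Share of the tested members of each gene list called lower (left, blue) or higher (right, red) in shSNW1 against shGFP, with the shares over all genes as dotted lines, and the median change of each list on the right. DNA replication (-0.62) and homologous recombination genes (-0.55) lie at the bottom, and splicing helicases, second-step factors and exon junction proteins (0.27) at the top of the lists shown, which leave out those drawn up after values were seen, the marker lists and 1 list not reported here.

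Splicing factors were slightly higher in some parts of the machinery and mixed in others. Of 15 subunits of the PRP19 complex and its partners, SNW1 not among them, 8 were higher and 1 lower, with a median of 0.17. RBM22, which contacts the U6 RNA in the catalytic core, was at 29.4, 30.7 and 29.5 FPKM in shSNW1 libraries and at 12.4, 11.7 and 12.9 FPKM in shGFP libraries (1.21 ± 0.0426, adjusted p = 4.242e-11, limma). It was also above shGFP in shNR0B1 cells (19.1 FPKM) and shNRF2 cells (19.6 FPKM), but below the shSNW1 level in both. XAB2 rose by 0.60 and SYF2 by 0.43, while the cyclophilin PPIL1, which binds SNW1, fell by 0.23.

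Of 18 factors of the U1 and U2 particles, which recognise the ends of introns, 13 were higher and none lower, with a median of 0.22. SF3A3 averaged 44.5 FPKM in shSNW1 cells and 29.4 FPKM in shGFP cells (0.58 ± 0.0489), and SF3A1, PUF60 and SF3B2 rose by 0.49, 0.48 and 0.44. Of 15 splicing helicases, second-step factors and exon junction proteins, 11 were higher and none lower (median 0.27), among them SLU7 (0.50), DHX16 (0.47), CASC3 (0.43) and DHX38 (0.37). Of 25 tri-snRNP and Sm proteins, 9 were higher and 6 lower (median 0.02), or 13 and 3 under a common total. Of these, PRPF8, the scaffold of the catalytic core, averaged 79.8 FPKM in shSNW1 cells and 44.1 FPKM in shGFP cells (0.84 ± 0.0473), PRPF3 rose by 0.98 and SART1 by 0.92, and PPIH fell by 0.46. PRPF8 was also above shGFP in shNR0B1 cells (67.0 FPKM) and shNRF2 cells (55.2 FPKM), but below the shSNW1 level in both.

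Regulators of splice site choice did not move as a block. Of 18 SR proteins and their kinases, 2 were higher and 8 lower, but 4 were higher and 2 lower under a common total. SRSF9 fell by 0.37, CLK1 by 0.25 and CLK4 by 0.22, and TRA2A rose by 0.15. The call of CLK4 was lost under a common total (adjusted p = 0.073, limma). Of 17 hnRNP proteins, 6 were higher and 7 lower, or 7 and 5 under a common total, with HNRNPR (0.73), PTBP2 (0.67) and HNRNPH3 (0.43) higher and HNRNPAB (-0.35) lower. HNRNPR and PTBP2 were about as high in shNR0B1 cells (91.3 and 5.71 FPKM) as in shSNW1 cells (88.7 and 5.16 FPKM). HNRNPH3 was not, at 71.9 FPKM in shNR0B1 cells and 134 FPKM in shSNW1 cells. Of 10 nonsense-mediated decay factors, 5 were higher and 1 lower, or 8 and 0 under a common total, with SMG8 and SMG9 each up by 0.34, UPF1 by 0.33, and UPF3A down by 0.17 (not called under a common total, adjusted p = 0.1416).

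Small nucleolar RNA (snoRNA) genes were, summed up, higher in shSNW1 libraries than in any other H460 hairpin group. In human cells most snoRNAs are cut from the introns of host genes after splicing, and they guide chemical changes of ribosomal and spliceosomal RNA. This group was noticed after the values were seen, so it is described without a test of the group. Over all 392 snoRNA and small Cajal body RNA genes in the table, expressed or not, the summed RPM (recovered reads per 1000000 in the library) was 146, 141 and 143 in shSNW1 libraries, against 95.3, 92.2 and 92.0 in shGFP libraries. The sums averaged 143 ± 2.54 in shSNW1 cells, 76.9 ± 2.83 in shNR0B1 cells, 68.0 ± 5.63 in shNRF2 cells and 93.1 ± 1.85 in shGFP cells (SD, n = 3 each). Every shSNW1 library was above every library of the other H460 hairpin groups, and the shSNW1 sum was 1.54 times the shGFP sum and 1.86 times the shNR0B1 sum.

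The summed difference was larger for the snoRNA genes that lie inside a gene of the table, but the others had few reads. The 296 snoRNA genes inside a gene of the table, by their position in RefSeq, summed to 131 ± 2.41 RPM in shSNW1 cells and 82.9 ± 2.00 in shGFP cells, a ratio of 1.59. The 96 others have no gene of the table around them, and some can lie inside a gene that it does not name. They summed to 11.8 ± 0.629 in shSNW1 cells and 10.3 ± 0.421 in shGFP cells, a ratio of 1.15. Among them SNORD116-4 fell, with 31, 33 and 29 reads in shSNW1 libraries and 75, 43 and 53 in shGFP libraries. SNORD104 rose, with 77, 73 and 73 reads against 58, 50 and 53. Of the 14 tested among the 96, 4 were called higher and 2 lower, so this ratio depends on few genes. The 146 host genes, summed, had a ratio of 1.01 to shGFP, and 1308 miRNA genes a ratio of 1.12. Single hosts did move: of 139 tested, 43 were called higher and 56 lower, or 60 and 44 under a common total. The summed hosts had a ratio of 1.10 to shNR0B1 and 1.19 to shNRF2, where all snoRNA genes had 1.86 and 2.11. By class, the ratio to shGFP was 1.91 for the H/ACA genes (SNORA, guides of pseudouridylation), 1.35 for the C/D genes (SNORD, guides of methylation) and 1.65 for the small Cajal body genes. Without the 5 genes with most reads the ratio was 1.55.

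**Figure D4:**
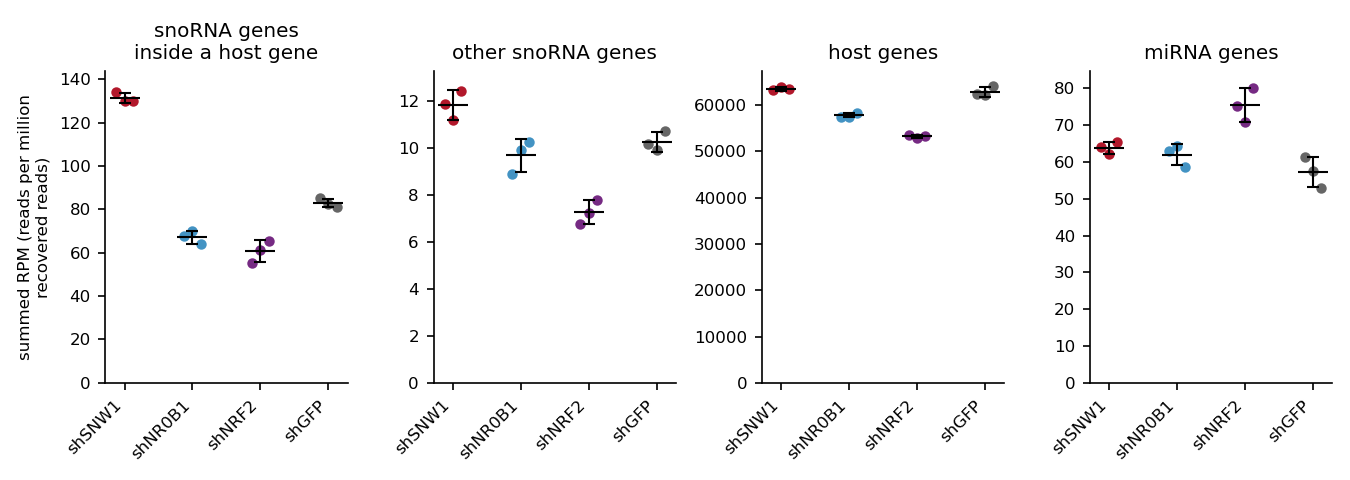
Summed RPM in each H460 library (points) with the mean and SD of 3 libraries (bars), with shSNW1, shNR0B1, shNRF2 and shGFP from left to right. The panels are snoRNA genes inside a host gene of the table, other snoRNA genes, host genes and miRNA genes. The other snoRNA genes can still lie inside a gene that the table does not name. The snoRNA genes inside a host gene average 131 in shSNW1 and 60.7 to 82.9 in the other groups, while the sum of the host genes differs little between shSNW1 and shGFP.

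Each snoRNA gene had few reads. SNORD33, within RPL13A, had 17, 10 and 6 reads in shSNW1 libraries and 2, 1 and 1 reads in shGFP libraries (log2 difference of FPKM + 1 of 2.06 ± 0.387, adjusted p = 0.0003149, limma). RPL13A, the host, fell by 0.19. SNORD74, within GAS5, had 26, 27 and 16 reads in shSNW1 libraries and 14, 5 and 5 reads in shGFP libraries (1.54 ± 0.275). GAS5 itself was not called (0.08, adjusted p = 0.09229), though it was called higher under a common total (0.16, adjusted p = 0.002566). SNORA5A, within TBRG4, had 24, 28 and 13 reads in shSNW1 libraries and 7, 5 and 6 reads in shGFP libraries.

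The other snoRNA genes among the largest rises were SNORA45 (within RPL27A, 1.54), SNORD43 (within RPL3, 1.71), SNORD46 (1.63), SNORD38B (1.54) and SNORD99 (within SNHG12, 1.70). With a pseudocount of 0.1 the calls of SNORD99 (adjusted p = 0.06812) and SNORD38B (adjusted p = 0.1043) were lost. Not all moved: SNORD47, the snoRNA gene with the most reads and another passenger of GAS5, had 100, 95 and 85 reads in shSNW1 libraries and 111, 123 and 80 reads in shGFP libraries. Its level did not pass the test (-0.07, adjusted p = 0.6465). SNORA40, within TAF1D, had 112, 127 and 94 reads in shSNW1 libraries and 90, 72 and 63 reads in shGFP libraries, a rise of 0.63 ± 0.105.

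Of the 392 genes, 160 reached 1 FPKM in at least 3 libraries, and 63 of those were called higher and 4 lower, but genes that reached it only through the shSNW1 libraries had to be higher there. Counted over all 392, the mean was higher in shSNW1 for 186 and lower for 61, and 145 had no read in any of the 6 libraries. The count of calls was 72 and 3 under a common total, and 59 and 5 with limma-voom on the recovered reads. The libraries were made from polyadenylated RNA, and reads in these genes can come from a snoRNA or from unspliced RNA of its host, which gene values cannot tell apart.

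Of the 12 tested noncoding host genes of snoRNAs, 7 were higher and 3 lower. SNHG15 was at 56.2, 52.6 and 51.5 FPKM in shSNW1 libraries and at 27.7, 30.4 and 31.2 FPKM in shGFP libraries (0.82 ± 0.0723), SNHG3 rose by 0.35, SNHG16 fell by 0.45 and SNHG5 by 0.32. SNHG12, the host of SNORD99, rose by 0.24. Gene length moved with direction among genes other than snoRNA genes, counting only those with a recovered length, which leaves out genes with few reads. Of the 50 up to 500 bases, 16% were higher and 54% lower, and of those over 8000 bases, 36.5% were higher and 28.8% lower. The part of length in the results, those on snoRNA genes included, was not tested. In 20 tested genes without introns, a list added after the files were seen, 9 were higher and 5 lower, or 11 and 3 under a common total, with a median of 0.04.

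Genes of the IL-6 receptor family fell. IL6R, the receptor for interleukin 6, was at 2.00, 2.20 and 2.05 FPKM in shSNW1 libraries against 8.96, 8.95 and 8.99 FPKM in shGFP libraries (-1.69 ± 0.0457, adjusted p = 4.641e-12, limma). OSMR, the oncostatin M receptor, was at 37.9, 37.5 and 36.9 FPKM in shSNW1 libraries and at 99.0, 99.2 and 94.0 FPKM in shGFP libraries (-1.36 ± 0.0342). Neither gene overlapped with any of the other 9 H460 hairpin libraries, since IL6R averaged 12.3 FPKM in shNR0B1 cells and 17.1 FPKM in shNRF2 cells, and OSMR averaged 83.3 and 164 FPKM in those groups. IL6ST, the signalling chain gp130 that both receptors use, fell by 0.86, and LIFR, the leukaemia inhibitory factor receptor, fell by 0.85.

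A list of 19 genes of these receptors and of the acute-phase response was drawn up after those values were seen. Of its 11 tested members, 9 were lower and 2 higher, with a median of -0.86, and 6 were lower by at least 1.5 fold than in each of the 3 other groups. IL6R, OSMR and IL6ST, whose values had been seen, are counted among the 9 and the 6, so these counts are not independent of them. FGG, the fibrinogen gamma chain, averaged 1.91 FPKM in shSNW1 cells and 9.60 FPKM in shGFP cells, and CFD, complement factor D, averaged 3.89 FPKM in shSNW1 cells and 10.4 FPKM in shGFP cells. The 2 that rose were STAT3, the transcription factor downstream (0.20), and SOCS3, its feedback inhibitor (0.46). CEBPD, a transcription factor of the acute-phase response with no introns, averaged 4.68 FPKM in shSNW1 cells and 11.1 FPKM in shGFP cells (-1.10 ± 0.0728).

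Genes that set shSNW1 apart from every other H460 hairpin group were called in the same direction, by at least 1.5 fold, against each of shNR0B1, shNRF2 and shGFP. There were 112 such genes higher (0.98%) and 193 lower (1.69%), which is 17.4% of the 644 genes higher and 23.7% of the 814 genes lower than shGFP by that fold. Of the 112, 44 were snoRNA genes, and of the 193 none were, while 160 of all 11431 genes tested were snoRNA genes. The limit given for the calls of snoRNA genes holds here too, since those that reached 1 FPKM only through the shSNW1 libraries could only be higher. The 8 with the largest rise against all 3 groups were EGR1, DKK1 and 6 snoRNA genes, described above.

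The 8 with the largest fall were SUCNR1, IL6R, C1QTNF6, GPR64, PCOLCE2, CDH10, GALNT5 and CNTNAP1. CDH10, a cadherin, averaged 4.56 FPKM in shSNW1 cells, 12.6 FPKM in shNR0B1 cells, 33.8 FPKM in shNRF2 cells and 13.1 FPKM in shGFP cells. GALNT5, which adds the starting sugar of O-linked chains, averaged 4.11 FPKM in shSNW1 cells, 11.3 FPKM in shNR0B1 cells, 31.2 FPKM in shNRF2 cells and 13.8 FPKM in shGFP cells. CNTNAP1, a neuronal adhesion protein, averaged 3.23 FPKM in shSNW1 cells, 16.5 FPKM in shNR0B1 cells, 14 FPKM in shNRF2 cells and 9.19 FPKM in shGFP cells. Among genes outside the naming rule, CASP9, the initiator caspase of the mitochondrial pathway, was at 21.7, 23.3 and 23.6 FPKM in shSNW1 libraries and at 8.23, 7.998 and 8.83 FPKM in shGFP libraries (1.35 ± 0.055), and was named after its values were seen. MEST, an imprinted gene named in the same way, fell by 1.41.

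**Figure D5:**
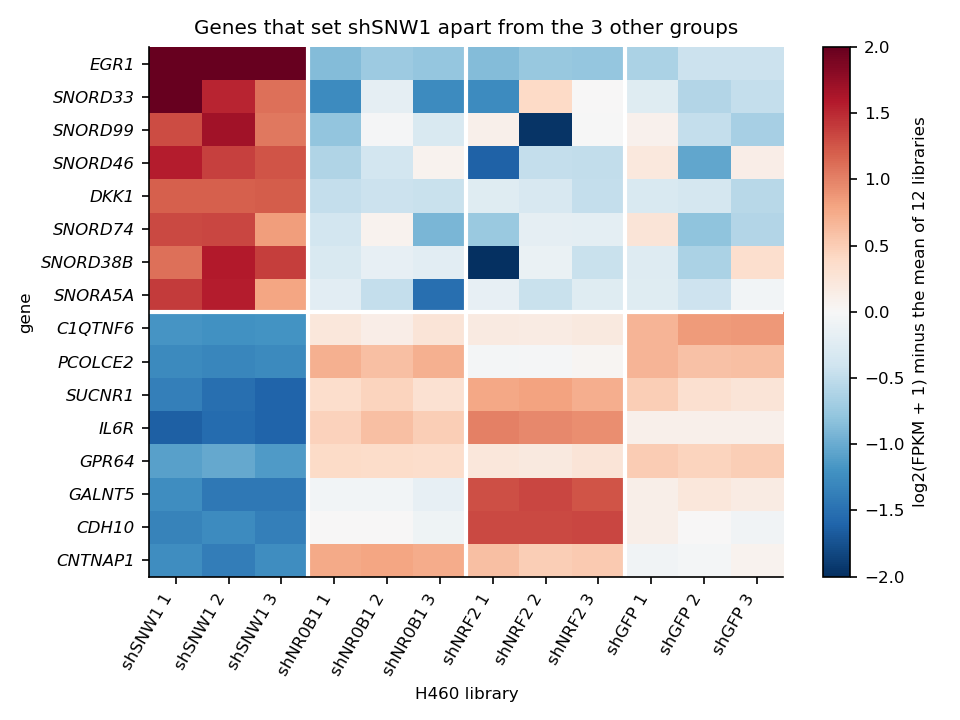
Levels of the 16 genes with the largest difference of shSNW1 from all 3 other groups, as log2(FPKM + 1) minus the mean of the 12 H460 libraries, with shSNW1 libraries on the left and shGFP libraries on the right, and colours that saturate at 2 in either direction. The 8 genes at the top are high and the 8 at the bottom are low in each of the 3 shSNW1 libraries, and 6 of the upper 8 are snoRNA genes.

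Targets of NRF2, which the KEAP1 mutation keeps on in this line, were more often higher than lower: 17 rose and 7 fell of 29 tested, with a median of 0.16. HMOX1, haem oxygenase, was at 43.2, 44.5 and 47.0 FPKM in shSNW1 libraries and at 15.4, 14.8 and 17.1 FPKM in shGFP libraries (1.45 ± 0.0743, adjusted p = 1.247e-09, limma), and it averaged 11.1 FPKM in shNR0B1 cells and 4.98 FPKM in shNRF2 cells. AKR1B10, an aldo-keto reductase, averaged 1094 FPKM in shSNW1 cells and 584 FPKM in shGFP cells (0.91 ± 0.031), and UGDH rose by 0.80, while PIR fell by 0.46. GCLM (0.60), ALDH3A1 (0.64) and HMOX1 were higher by at least 1.5 fold than in each other H460 hairpin group. As a list, 14 of the 29 were higher and 11 lower in the direct test against shNR0B1 (median 0.08). Against shNRF2, 23 were higher and 4 lower (median 1.07).

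Cholesterol synthesis fell almost throughout. Of 23 tested genes, 20 were lower and 1 higher, or 16 and 2 under a common total, with a median of -0.44. MSMO1, a sterol oxidase, was at 21.2, 20.3 and 20.2 FPKM in shSNW1 libraries and at 42.7, 40.9 and 39.3 FPKM in shGFP libraries (-0.96 ± 0.0524), and INSIG1, which holds the sterol sensor in place, fell by 0.94. LSS, which closes the sterol rings, rose by 0.44. SREBF2, the transcription factor of this pathway, fell by 0.19, a call lost under a common total (adjusted p = 0.06786, limma). In the direct comparison with shNR0B1, 5 were higher and 7 lower in shSNW1 cells, and in that with shNRF2, 16 were higher and 5 lower.

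Endoplasmic reticulum chaperones were lower in 14 and higher in 2 of 18, with a median of -0.34, led by DNAJB9 (-0.64), XBP1 (-0.61) and DNAJC3 (-0.60), while the lectin chaperone CANX rose by 0.53. Of 22 ATF4 and serine synthesis genes, 8 were higher and 6 lower, or 9 and 3 under a common total. DDIT3, the stress factor CHOP, averaged 16.8 FPKM in shSNW1 cells and 7.96 FPKM in shGFP cells (0.99 ± 0.0768), and VLDLR fell by 0.78. Of 19 heat shock genes, 5 were higher and 8 lower, or 7 and 3 under a common total. CRYAB, a small heat shock protein, was at 6.18, 5.14 and 4.58 FPKM in shSNW1 libraries and at 14.9, 16.6 and 17.8 FPKM in shGFP libraries (-1.47 ± 0.0783), with no overlap.

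The pathways in which SNW1 is known as a coregulator moved in mixed directions. Of 17 tested Notch genes, 9 were higher and 3 lower, with a median of 0.25. NOTCH1 rose by 0.63 and NOTCH2 by 0.54, while MAML2, a coactivator, fell by 0.41 and NOTCH3 by 0.32. Of 18 TGF-beta and SMAD genes, 8 were higher and 6 lower. ID1, a target of BMP signalling, was at 96.5, 86.5 and 93.8 FPKM in shSNW1 libraries and at 35.8, 32.2 and 37.5 FPKM in shGFP libraries (1.37 ± 0.0619, adjusted p = 3.738e-10, limma), and ID2 rose by 0.96. The ligand TGFB2 fell by 1.12 and the TGF-beta target CTGF by 0.98. CTGF was lower still in shNR0B1 cells (56.2 FPKM, against 78.8 FPKM in shSNW1 cells) but high in shNRF2 cells (352 FPKM). Tested directly, 4 of the 17 Notch genes were higher and 6 lower in shSNW1 than in shNR0B1 cells (median 0.03). NOTCH1 did not differ in that test (0.07, adjusted p = 0.3021, limma). Against shNRF2, 9 Notch genes were higher and 4 lower (median 0.16).

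Of 11 vitamin D and retinoid genes, 4 were higher and 2 lower, with RXRB (0.55), RXRA (0.49) and NCOA1 (0.37) higher and DHRS3 (-0.39) lower. Tested directly, 4 of the 11 were higher and 6 lower than in shNR0B1 cells, with RXRA (-0.19) and NCOA1 (-0.15) among the lower. Of 13 steroid and nuclear receptor genes, 6 were higher and 5 lower than in shGFP cells, with NR1D2 (0.54) and NR1D1 (0.42) higher and NR1H3 (-0.66) and PPARG (-0.52) lower. Of 14 genes of P-TEFb and elongation, 7 were higher and 3 lower. CDK9, the kinase of P-TEFb, averaged 12.6 FPKM in shSNW1 cells and 6.07 FPKM in shGFP cells (0.94 ± 0.057), but it was higher still in shNR0B1 cells (16.2 FPKM) and shNRF2 cells (17.99 FPKM). ELL2, an elongation factor, was at 22.9, 23.5 and 22.6 FPKM in shSNW1 libraries and at 52.7, 54.8 and 49.96 FPKM in shGFP libraries (-1.15 ± 0.0384), below both other knockdowns. Of 9 genes of the MYC network, 5 were higher and 1 lower, MXD3, a partner of MAX (-0.97).

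Genes of the extracellular matrix and mesenchymal state were lower in 10 and higher in 3 of 17, with a median of -0.29. FN1, fibronectin, was at 229, 234 and 230 FPKM in shSNW1 libraries and at 394, 429 and 407 FPKM in shGFP libraries (-0.82 ± 0.044, adjusted p = 1.954e-09, limma), and ITGA5, a subunit of its receptor, fell by 0.65. Both were higher in shNR0B1 and shNRF2 cells than in shGFP cells on average, with 436 and 676 FPKM for FN1 and 33.0 and 32.1 FPKM for ITGA5. AXL, a receptor tyrosine kinase, averaged 3.79 FPKM in shSNW1 cells and 11.8 FPKM in shGFP cells (-1.41 ± 0.052), and SNAI1 rose by 0.48. Of 15 YAP and TEAD targets, 5 were higher and 9 lower, with DKK1 and AMOTL2 (0.72) higher and CRIM1 (-1.04) lower. Of 11 epithelial genes, 4 were higher and 4 lower, with CLDN4 (0.42) higher and KRT7 (-0.57) and CLDN1 (-0.37) lower.

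Inflammatory genes were divided. Of 22 tested NF-kB targets and chemokines, 11 were higher and 4 lower. CXCL1, a neutrophil chemokine, averaged 102 FPKM in shSNW1 cells and 180 FPKM in shGFP cells (-0.81 ± 0.0502), CXCL5 fell by 0.75 and IL18 by 0.81, while NFKBIA, the inhibitor of NF-kB, rose by 0.67. Of 23 interferon response genes, 5 were higher and 12 lower, with the RNA sensors IFIH1 (0.61) and DDX58 (0.48) and also IFI27 (0.57) higher and OAS3 (-0.48) lower. In shSNW1 cells DDX58 averaged 2.28 FPKM, against 1.35 FPKM in shGFP cells.

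The remaining lists held called genes in both directions. Of 23 autophagy and lysosome genes, 12 were higher and 8 lower, with ATG16L1 (1.28) and BECN1 (0.65) higher and the lysosomal enzyme GLA (-0.45) lower. Of 27 hypoxia and glycolysis genes, 8 were higher and 10 lower, or 10 and 8 under a common total, with EGLN3 (-0.91), SLC2A3 (-0.55) and PFKFB4 (-0.50) lower and NDRG1 (0.53) higher. Of 27 proteasome subunits, 5 were higher and 10 lower, or 7 and 6 under a common total, and of 27 respiratory chain subunits, 5 were higher and 12 lower, or 9 and 6. PSMB5 (0.53) and SDHA (0.77) were the members that rose most in those lists. Of 25 ribosome biogenesis genes, 9 were higher and 4 lower, or 11 and 2 under a common total, with RRN3 (0.51), RRP9 (0.44) and PES1 (0.42) higher and NHP2, a protein of the H/ACA snoRNA particle, lower (-0.35). Of 13 histone genes, 5 were higher and 5 lower, with HIST2H2BE (1.12) highest and H2AFZ (-0.79) lowest.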

How the data were processed

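RNA sequencing libraries of H460 cells with hairpins against SNW1, NR0B1, NRF2 or GFP (3 each, 12 in all) were used. The authors deposited FPKM values per gene symbol. Per the submitters' processing notes, the tools were STAR and featureCounts, DESeq2, HOMER and Bowtie2, with build hg19. Their versions and the strand setting were not found in the sources, so reads of overlapping or antisense genes cannot be told apart. Per the labels' protocols, RNA was polyadenylated and libraries were made with a TruSeq kit, version 2. Peaks and the other groups were not used here. Some genes and 1 gene list are not reported here, and CDKN1A, GDF15, AEN and FAS, which that list named, are given by their own values.

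The members and the gene lists were chosen with earlier results of these data known. Values were tested with limma 3.58.1 in R 4.3.3 (Python 3.11.15 for the rest) on log2(FPKM + 1) in 1 fit of the 12 libraries with a trended prior variance, over the 11431 genes that pass the minimum level. Calls need an adjusted p (Benjamini-Hochberg) under 0.05. The pseudocount of 1 understates the change of low genes. Errors of log2 differences are standard errors. Each adjusted p printed comes from this test unless another is named. Named genes are SNW1, NR0B1, NFE2L2, KEAP1 and RBM45, the 15 strongest rises and 15 strongest falls among called genes (no overlap of libraries, mean of the higher group at least 5 FPKM), the 8 in each direction that differ most from all 3 other groups, and up to 4 called genes of each list. Others were named after their values were seen: genes of the lists on IL-6 receptors, secretory genes, snoRNAs and genes without introns, and members of other lists beyond those 4.

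FPKM values step by the worth of 1 read, so reads per gene were recovered for all members (tolerance 0.02 reads) and used for depth, RPM and limma-voom. Gene lengths were set only for genes with enough reads in each of the 18 hairpin libraries of the series. Members with few reads therefore have no length and are left out of the counts by length. Libraries held 16709893 to 24613434 recovered reads. Replicates of a group differed beyond sampling noise in every pair, so none was counted as a duplicate. On simulated data of 11431 genes, the test of shSNW1 against shGFP found 100% of 50 genes raised 2 fold. It found 94% of 50 genes raised and 92% of 50 genes lowered by 1.5 fold. Genes with few reads were not among those changed, so these shares do not cover them. Promoter sequences were matched by symbol for 9111 of the 11431 genes. Alternatives were the pseudocount, the filter on low values, 3 other scalings or tests, a replicate block, the 6 libraries alone, and leaving out each library.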

Additional observations from a re-analysis of the deposited data

How the results depend on the processing

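No named gene that was called changed direction under any alternative run. SNORD47, which was not called, moved to 0.0095 under a common total and ranged from -0.13 (without shGFP 1) to 0.047 (without shGFP 2) when libraries were left out. Most counts over all genes stayed within 1.5 times their value under the alternatives, and the exceptions follow. Counts in single lists that moved further under a common total are given beside them above. With limma-voom on recovered reads, 983 genes were higher in shSNW1 than in shGFP by at least 1.5 fold, and 295 genes were lower than in all 3 other groups. With a pseudocount of 0.1, that count was 293. With a minimum of 5 FPKM, fewer genes are tested, and 495 genes were lower than in shNR0B1 and 1104 lower than in shNRF2 by at least 1.5 fold, and 73 were higher than in all 3 groups. The replicate numbers share only a number (mean correlation of same-numbered libraries 0.019, against -0.009 for the others), and a replicate block gave 7855 called genes, 3587 higher and 4268 lower, and changed no call of a named gene.

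Leaving out each library gave 7216 to 7684 called genes against shGFP (3203 to 3541 higher, 3922 to 4143 lower, and 566 to 676 and 763 to 834 by at least 1.5 fold). Against shNR0B1 it gave 7212 to 7444 and against shNRF2 8562 to 8742, with 88 to 116 genes set apart higher and 180 to 197 lower. The calls of CLK4 (adjusted p 0.05256 to 0.05708 in 3 cases) and UPF3A (0.05808 to 0.08087 in 2) were lost, and GAS5 became called higher without shSNW1 1 (0.11, adjusted p = 0.03307) and without shGFP 1 (0.12, adjusted p = 0.01326). Limits are the partial knockdown, 1 hairpin per target, 3 libraries a group, and few reads in each snoRNA gene.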
